A study of Mus musculus with 2 samples.

Results

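The genes described here are 10 abundant actin and actin-binding genes of leukocytes, measured in the spleen of 1 mouse: the thymosins Tmsb4x and Tmsb10, the cytoplasmic actins Actb and Actg1, profilin 1 (Pfn1), cofilin 1 (Cfl1), coronin 1A (Coro1a), the Arp2/3 subunits Arpc1b and Arpc2, and L-plastin (Lcp1). They were chosen by name, with earlier results of these data known. The gene identifiers of both deposited gene tables were matched to mouse symbols, and all 10 were found among 43346 genes with an Ensembl identifier. All 10 also passed a filter on low values that left 12467 genes. The tissue was spleen of a single male C57BL/6J mouse aged 10 weeks, with no treatment and no engineered allele named in the labels. Polyadenylated RNA from it was sequenced from 2 libraries, called technical replicates 1 and 2, and the labels date the second to May 2015. The labels define no other group, so each difference below is replicate 2 against replicate 1 of the same tissue.

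Actin exists in cells as free monomers and as filaments, and leukocytes migrate, engulf particles and form contacts by building and dismantling filaments quickly. Thymosin beta proteins hold monomers in reserve, and profilin hands monomers to growing filament ends. The Arp2/3 complex starts branches on existing filaments, coronins act on such branches, cofilin severs ageing filaments and plastins tie filaments into bundles. Coro1a and Lcp1 are largely restricted to blood cells, and Arpc1b is the form of its subunit that predominates in them, while Actb and Actg1 are present in nearly every cell type.

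The libraries differed far beyond these genes. Total expected counts, the estimated numbers of reads per gene, were 27528824 in replicate 1 and 3806381 in replicate 2, and 13937 and 9390 genes reached 1 TPM (transcripts per 1000000, a level scaled by length and by library). All 6 B cell and all 6 T cell markers were at 1 TPM or more in both libraries, so markers of the lymphocytes of spleen were present. The 7 erythroid markers had 43117 TPM together in replicate 1 but 442737 in replicate 2, a 10.3-fold difference, and the B cell markers 3064 and 1248 TPM. The 6 neutrophil markers had 926 and 191 TPM together, most of it S100a8 and S100a9. Among them Camp had 4.99 and 68.6 TPM and Elane was listed at 0 in replicate 2, and 2 of 5 tested were called higher and 0 lower. In bulk tissue, fewer cells of a type and less RNA per cell cannot be told apart. Between technical replicates of 1 spleen, neither can be told apart from a technical difference between the libraries. Because 1 library stands on each side, no replicate check and no p-value exist, and calls compare these libraries. A call, higher or lower, needed an exact 95% counting interval that lay wholly beyond 1.5-fold after trimmed-mean (TMM) scaling. Such intervals hold counting error only and no spread between libraries. Even the counting error may be understated, because PCR copies are not separate molecules.

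The 10 genes together were a large part of the RNA in both libraries. Their summed level was 19065 TPM in the first library and 13998 TPM in the second, or 1.91% and 1.40% of all TPM. When the 4 adult globin genes were left out, the same sums were 1.99% and 2.51%. By expected counts the 10 genes held 1.23% (95% interval 1.225 to 1.234) of replicate 1 and 2.31% (2.297 to 2.327) of replicate 2. In TPM the order was the same at both ends: Tmsb4x was the highest and Actb next in each library, and Arpc1b was the lowest with Arpc2 just above it. The genes between were reordered. Coro1a lay below Pfn1, Actg1, Cfl1, Tmsb10 and Lcp1 in replicate 1 and above all 5 in replicate 2, where Actg1 and Cfl1 stood near each other as they had in replicate 1.

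Between the libraries the 10 genes moved apart from one another. After TMM scaling 5 of 10 were called higher in replicate 2 (Tmsb4x, Tmsb10, Actb, Pfn1 and Coro1a), against 28.0% of all tested genes. Arpc2 alone was called lower, 1 of 10, against 32.6% of all tested genes. The other 4, Actg1, Cfl1, Arpc1b and Lcp1, met neither criterion. The median log2 ratio of the 10 genes was 1.10, beside -0.27 over all tested genes, and their ratios covered a range of 5.82 on the log2 scale.

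These counts depended on what the libraries were scaled to. Scaling to total counts lowers every TMM log2 ratio by 1.26, and 4 of 10 were then called higher (Tmsb10, Actb, Pfn1 and Coro1a) and 4 of 10 lower (Cfl1, Arpc1b, Arpc2 and Lcp1). Over all tested genes those shares were 14.6% and 58.5%, and the median log2 ratio was -0.16 for the 10 genes and -1.53 for all. Called the same way under TMM, DESeq2 size factors and total counts, with TPM moving in the same direction, were Tmsb10, Actb and Coro1a as higher, 3 of 10 against 11.8% of tested genes. By the same joint criterion Arpc2 was lower, 1 of 10 against 30.5%. The difference of log2(TPM + 1) had a median of -1.38 over the 10 genes and -2.10 over all tested genes. Relative to the bulk of genes the 10 were therefore higher at their median on each of these scales, while the sign of the median itself was positive under TMM and DESeq2 size factors (1.23) and negative on total counts and log2(TPM + 1). Erythroid RNA moved with these values, and TPM recomputed without the 4 globin genes gave a median of -0.60 for the 10 genes and -1.63 for all. On that scale Tmsb10, Actb, Pfn1 and Coro1a were beyond 1.5-fold higher (1.07, 1.59, 0.70 and 1.83) and Actg1, Cfl1, Arpc1b, Arpc2 and Lcp1 beyond 1.5-fold lower (-1.07, -1.28, -1.81, -2.59 and -1.95). The part of blood content in the remaining differences was not tested. The spread among the members does not depend on the scaling of counts, because a scaling moves all of them by the same amount.

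**Figure D1:**
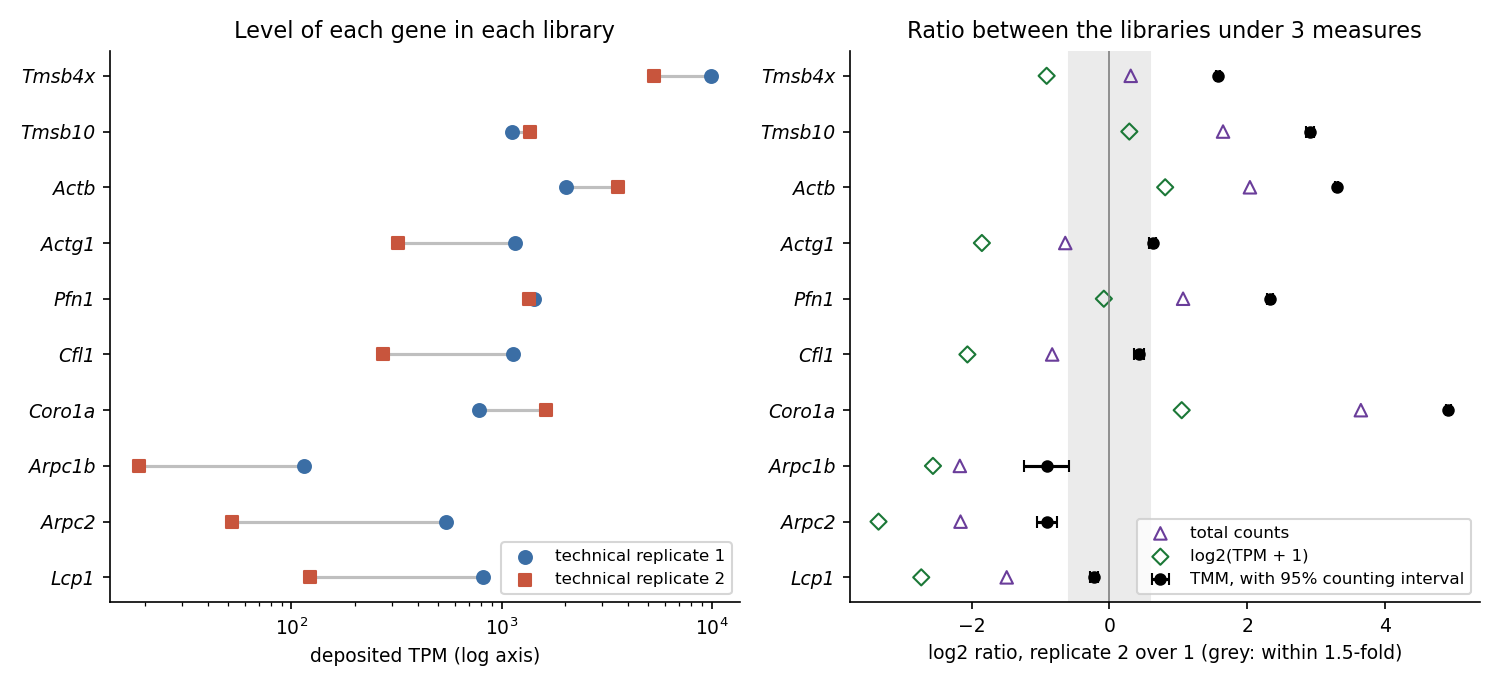
Left, deposited TPM of each gene on a log axis, with 1 point per library. Right, log2 ratio of replicate 2 over replicate 1 after TMM scaling with its 95% counting interval, after scaling to total counts, and as the difference of log2(TPM + 1). Coro1a lies farthest to the right on each scale, and Arpc1b and Arpc2 lie to the left of 0 on each.

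The thymosins are the monomer reserve. Both encode a very short protein, and Tmsb4x and Tmsb10 coding sequences are shown in full to mark where the pair differs. The capitals mark the 40 of 132 coding bases that differ between them, in the dominant transcripts Tmsb4x-201 and Tmsb10-203, without the stop codon.
Tmsb4x: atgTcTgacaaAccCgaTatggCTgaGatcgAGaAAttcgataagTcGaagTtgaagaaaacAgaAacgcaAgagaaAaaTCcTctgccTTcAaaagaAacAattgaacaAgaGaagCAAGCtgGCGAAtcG
Tmsb10: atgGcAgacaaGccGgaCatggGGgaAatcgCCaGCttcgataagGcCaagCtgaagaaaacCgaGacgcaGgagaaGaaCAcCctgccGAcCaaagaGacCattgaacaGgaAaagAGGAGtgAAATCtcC
Their coding bases were 69.7% identical, and the longest run without a difference was 10 bases. No 31-base word of Tmsb4x-201 occurred in a transcript of another gene. Of the words of Tmsb10-203, 73.7% did, and the protein-coding gene Gm9844 (7:24862213-24862697) held 62.2% of all its words. The tables assigned Gm9844 only 16 counts in replicate 1 and 77 in replicate 2.

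Tmsb4x (X:167207093-167209315, minus strand, mm10) was the most abundant of the 10 genes, at 9948 TPM in the first library and 5307 in the second, ranks 11 and 17 of all genes. Its expected counts were 109817 and 18858. The TMM log2 ratio was 1.57 (95% interval 1.55 to 1.60), called higher, but on the log2(TPM + 1) scale the difference was -0.91, and scaling to total counts gave 0.31, not called. Tmsb4x thus stood higher or lower in replicate 2 according to the scale. Within the gene, transcript Tmsb4x-201 went from 98.87% to 59.59% of the gene's TPM, and Tmsb4x-203 went from 0.77% to 40.41%. Both are protein coding, and they are 768 and 698 bases long. The deposited spread of the read assignment was 541 counts for each in replicate 2, beside expected counts of 11763 and 7095.

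Tmsb10 (6:72957347-72958748, minus strand) was called higher on each scaling of counts. It had 1116 TPM and 8076 expected counts in replicate 1, and 1368 TPM and 3501 expected counts in replicate 2. The TMM log2 ratio was 2.91 (2.85 to 2.97), that on total counts was 1.65, and the difference of log2(TPM + 1) was 0.29, within 1.5-fold. The ratio was 2.94 when the counts of Gm9844 were added. Tmsb4x exceeded Tmsb10 in TPM by 8.92 times in replicate 1 and by 3.88 times in replicate 2, so the balance within the pair was not the same in the libraries. Transcript Tmsb10-203 held 98.69% and 99.69% of the gene's TPM.

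The cytoplasmic actins differ by only a few amino acids near their start, and the opening of the coding sequences is printed for that reason. Capitals mark the 9 of 60 bases that differ between Actb-201 and Actg1-204.
Actb: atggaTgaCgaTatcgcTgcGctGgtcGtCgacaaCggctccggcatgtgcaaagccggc
Actg1: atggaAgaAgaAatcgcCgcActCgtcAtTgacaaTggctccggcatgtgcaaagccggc
Across all 1125 coding bases 128 differed, 88.6% identity, and 120 of these lay at the last position of a codon. The longest stretch without a difference was 62 bases. Among 31-base words, 35.1% of Actb-201 and 61.1% of Actg1-204 occurred in transcripts of other genes. The protein-coding gene Lrrc58 held 22.7% of all words of Actb-201, more than any other gene. It was assigned 2715 counts in replicate 1 and 15 in replicate 2. The processed pseudogene Gm12715 held 57.3% of all words of Actg1-204. Gm12715 was assigned 38 counts in replicate 1 and 0 in replicate 2.

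Actb and Actg1 moved in different measure. Actb (5:142903115-142906754, minus strand) had 2029.7 TPM and 65900 expected counts in replicate 1, and 3568 TPM and 37408 expected counts in replicate 2. Its TMM log2 ratio was 3.30 (3.28 to 3.32), 9.85-fold, with 2.04 on total counts and 0.81 on log2(TPM + 1). Actb was therefore higher in replicate 2 on each of these scales. Actg1 (11:120345690-120348542, minus strand) had 1158 TPM and 36032 expected counts in replicate 1, and 321 TPM and 3207 expected counts in replicate 2. Its TMM log2 ratio of 0.63 (0.57 to 0.68) reached just short of 1.5-fold at the lower bound and was not called, while DESeq2 size factors gave 0.75, called higher. The Actg1 ratio changed sign on total counts, to -0.64, and on log2(TPM + 1), to -1.85. Actb exceeded Actg1 in TPM by 1.75 times in replicate 1 and by 11.1 times in replicate 2. Together the actins had 3188 and 3890 TPM, against 11064 and 6676 TPM for the thymosins, so the thymosin to actin ratio was 3.47 in replicate 1 and 1.72 in replicate 2.

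The muscle actins are other products of the actin family. Acta2, smooth muscle alpha actin, was at 72.8 and 75.9 TPM, called higher with a log2 ratio of 2.52. Actg2, smooth muscle gamma actin, was at 8.33 and 1.35 TPM and not called. The 7 markers of smooth muscle of capsule and vessels, Acta2 and Actg2 among them, had 203 and 310.0 TPM together. Tagln, at 84.5 and 194.8 TPM, made up most of the difference, while Myh11, Actg2, Cnn1 and Smtn had less TPM in replicate 2. After TMM scaling 5 of the 7 were called higher and 1 lower, against 28.0% and 32.6% of all tested genes. The part of smooth muscle in the Actb value was not tested. Acta1 and Actc1, of skeletal and cardiac muscle, had no more than 1 count in either library.

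Profilin 1 and cofilin 1, which feed and dismantle filaments, parted as well. Pfn1 (11:70651850-70654644, minus strand) had 1420.1 TPM and 19800 expected counts in replicate 1, and 1346 TPM and 5744 expected counts in replicate 2. The TMM log2 ratio was 2.33 (2.29 to 2.37), called higher, and 1.07 on total counts, while the difference of log2(TPM + 1) was -0.08. Protein-coding transcripts of Pfn1 were at 1345.7 and 1345.3 TPM. The retained-intron transcript Pfn1-203 held 12.8% of the gene's counts in replicate 1 and had 6 counts in replicate 2.

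Cfl1 (19:5490455-5495201, plus strand), the cofilin of non-muscle cells, had 1139 TPM and 20861 expected counts in replicate 1, and 273 TPM and 1625 expected counts in replicate 2. Its TMM log2 ratio of 0.43 (0.36 to 0.51) was not called, and it turned to -0.83 on total counts and to -2.06 on log2(TPM + 1). Pfn1 exceeded Cfl1 in TPM by 1.25 times in replicate 1 and by 4.93 times in replicate 2. One transcript, Cfl1-201, carried the whole gene in both. Cfl1 overlaps Snx32 on the opposite strand over 2967 bases, and whether the counting used strand is not given in the sources used here. Snx32 had 171 and 16 counts, far fewer than Cfl1.

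Coro1a, the coronin of leukocytes, showed the largest TMM ratio of the 10 genes, and its transcripts were the ones that differed most in kind between the libraries. The gene (7:126699773-126707787, minus strand) had 8328 expected counts in replicate 1 and 14503 in replicate 2, more in the library with fewer reads in all. The TMM log2 ratio was 4.92 (4.88 to 4.96), 30.2-fold, with 3.65 on total counts. In TPM the gene went from 780.04 to 1619.9, 2.08-fold. TPM divides by length, and the mean transcript length of the gene, weighted by TPM, was 749 bases in the first library and 1659 in the second. No 31-base word of Coro1a-201 occurred in another gene, and its only overlapping gene, Bola2, shares 26 bases with it on the opposite strand and had 57 and 353 counts.

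In replicate 1 the transcript with the largest share of Coro1a was Coro1a-206, annotated as a retained intron, with 82.85% of the gene's TPM, 646 TPM and 5084 expected counts. In replicate 2 it was listed at 0, and the protein-coding Coro1a-201 held 99.82%, 1617 TPM and 14482 expected counts. Coro1a-201 had 8.17%, 63.7 TPM and 1791 expected counts in replicate 1. All protein-coding transcripts of Coro1a together went from 105.9 to 1619 TPM, 15.3-fold. The libraries thus gave nearly opposite pictures of which Coro1a transcript was present.

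The intronic stretch that only the retained-intron form carries is shown because it tells the leading Coro1a transcripts apart. Coro1a-206 has 4 exons and 602 bases, against 11 exons and 1660 bases of Coro1a-201. It lacks exons 1 to 6 and exon 11 of the coding form, and 471 of its bases are also exonic there. The other 131 bases (7:126701097-126701227) come from the 193-base intron between exons 6 and 7 of Coro1a-201. In the lines below, lower case is the retained intron in Coro1a-206 and the end of exon 6 in Coro1a-201, and capitals are the same first 20 bases of exon 7. The first lies at 7:126701077-126701227 and the second joins 7:126701290-126701309 to 7:126701077-126701096, all on the minus strand.
Coro1a-206: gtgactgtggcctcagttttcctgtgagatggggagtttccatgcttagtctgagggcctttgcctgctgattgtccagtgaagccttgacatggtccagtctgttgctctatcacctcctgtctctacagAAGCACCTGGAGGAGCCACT
Coro1a-201: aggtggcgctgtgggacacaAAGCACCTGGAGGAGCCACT
Only reads that touch the lower-case bases, or exons outside Coro1a-206, separate the 2 transcripts. For reads inside the shared 471 bases the split rests on the quantifier's model. The deposited spread of the read assignment for Coro1a-206 was 34.2 counts in replicate 1, small beside its 5084 counts.

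**Figure D2:**
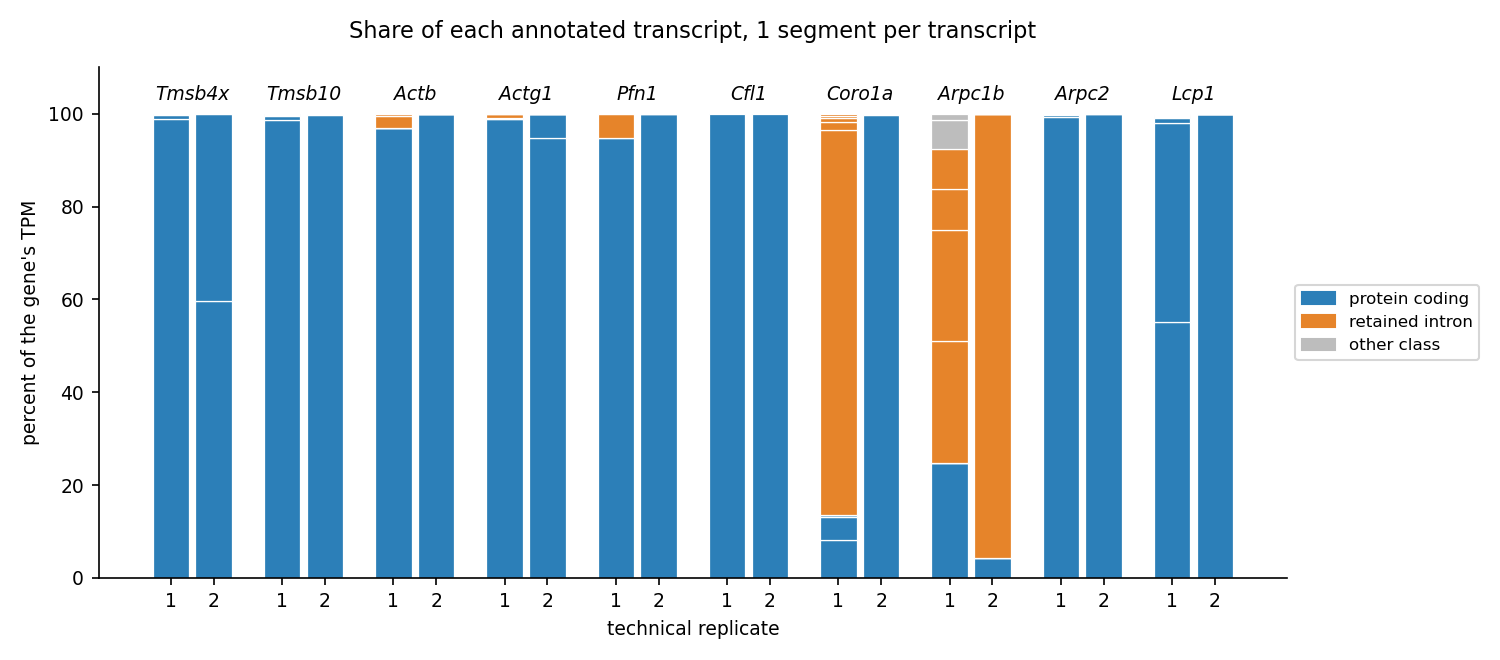
Share of each gene's TPM by annotated transcript in technical replicates 1 and 2, with 1 segment per transcript and colours for the transcript class. In Coro1a the retained-intron share filled most of the bar in replicate 1 and almost nothing in replicate 2, and in Arpc1b it was the larger part in both.

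Of 6 other coronins listed, 4 were tested and none was called in either direction after TMM scaling, while all 4 were called lower on total counts. Over all tested genes 28.0% were higher and 32.6% lower after TMM scaling, and 58.5% were lower on total counts. Coro1b, found in most tissues, had 219 and 17.1 TPM, with a log2 ratio of 0.18. Coro1c, Coro2a and Coro7 had ratios of 0.17, 0.23 and -0.85, the last with an interval of -1.27 to -0.45. On log2(TPM + 1) the median difference of these 4 was -2.87, so Coro1a was the sole coronin with more TPM in replicate 2 among the 5 tested. Coro2b and Coro6 did not pass the filter.

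The Arp2/3 subunits Arpc1b and Arpc2 had lower values in replicate 2 on each of the scales used. Arpc2 (1:74236084-74268209, plus strand), part of the structural core of the complex, had 543 TPM and 12961 expected counts in replicate 1, and 52.2 TPM and 400.0 expected counts in replicate 2. Its TMM log2 ratio was -0.90 (-1.05 to -0.76), and those on total counts and log2(TPM + 1) were -2.16 and -3.35, the last a 10.4-fold lower TPM. Arpc2-203 held 99.41% and 100% of the gene. Arpc2 was called lower at 1.5-fold but not at 2-fold, and after the median of genes of like GC content was subtracted its ratio was -0.08 and no call was made.

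Arpc1b (5:145114215-145130705, plus strand) was the scarcest of the 10 genes, at 115 TPM and 2629 expected counts in replicate 1, and 18.75 TPM and 81 expected counts in replicate 2. Its TMM log2 ratio was also -0.90, but its interval of -1.24 to -0.58 was wider and the call was missed at the upper bound. On total counts the ratio was -2.17, called lower. Arpc1b overlaps Pdap1 over 1937 bases on the opposite strand, and Pdap1 had 1227 counts in replicate 1 and 16 in replicate 2. In the library counts of Arpc1b, reads of Pdap1 cannot be told apart unless strand was used.

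Protein-coding Arpc1b was nearly absent from replicate 2. Arpc1b-201, the only coding transcript with reads, had 28.65 TPM and 1598 expected counts in replicate 1, and 0.79 TPM and 13.8 expected counts in replicate 2, a 36.3-fold lower TPM. By TPM the gene was led in replicate 1 by Arpc1b-206, with 26.21%, close to the 24.84% of Arpc1b-201. By expected counts Arpc1b-201 led there, with 1598 against 381 for Arpc1b-206. In replicate 2 Arpc1b-210 led, with 95.79% of TPM on 67.2 expected counts. Arpc1b-206 and Arpc1b-210 are both retained-intron transcripts. Of their bases, 613 of 850 and 413 of 772 lie outside the exons of Arpc1b-201. The retained-intron share of the gene's TPM went from 67.5% to 95.8% here, on 81 counts in replicate 2, but from 86.4% to 0.063% in Coro1a. By expected counts that share went from 35.1% to 83.0% in Arpc1b and from 64.4% to 0.0159% in Coro1a. In TPM the retained-intron transcripts of Arpc1b were lower in replicate 2 as well, 77.9 and 18.0 together. Arpc1b-206, like Coro1a-206, was listed at 0 there.

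**Figure D3:**
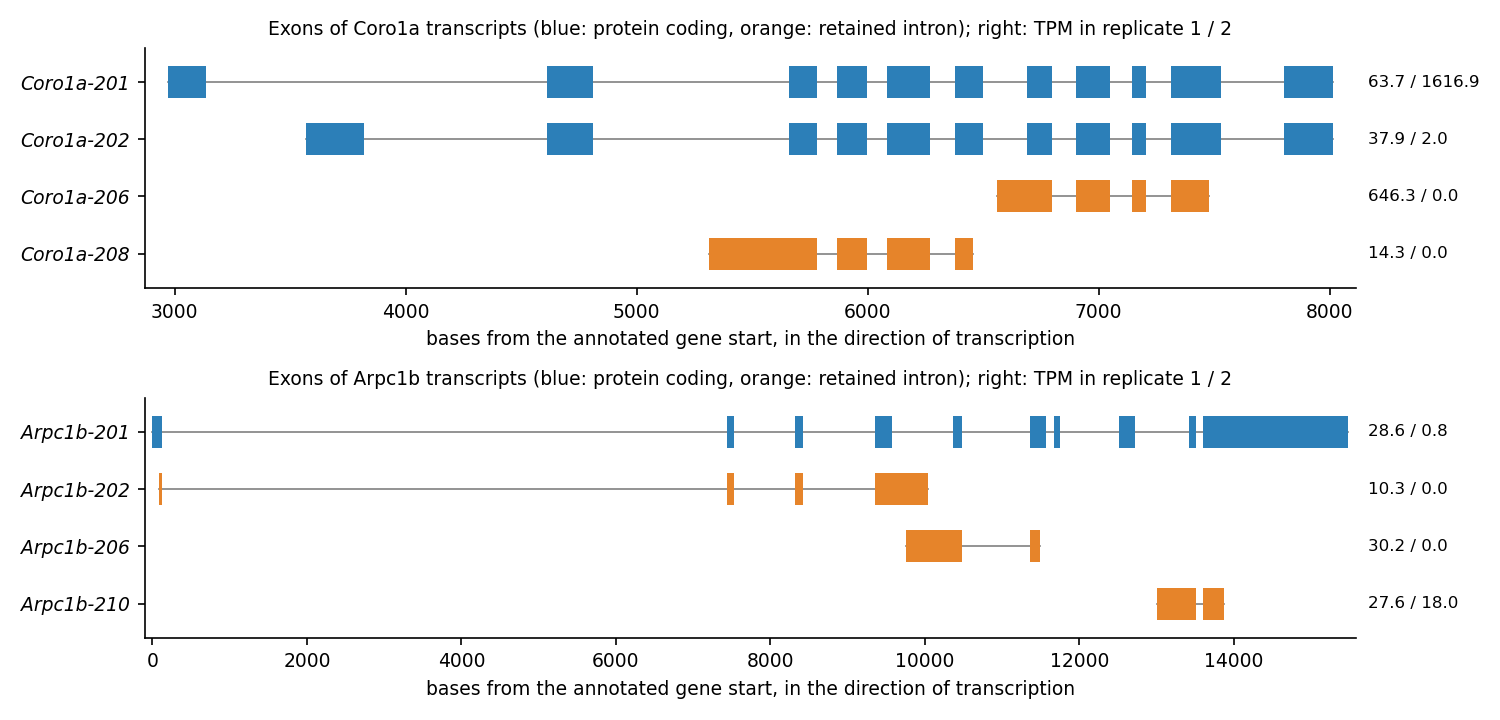
Exons of selected Coro1a and Arpc1b transcripts along the gene, in bases from the annotated gene start, with TPM in replicates 1 and 2 at the right. Coro1a-206 shares all but its first bases with the coding transcripts, and Arpc1b-206 and Arpc1b-210 each begin within an intron of Arpc1b-201.

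The rest of the Arp2/3 complex did not share a direction. With Arpc1b and Arpc2, 9 of its 10 listed genes were tested, of which 3 were called higher and 3 lower. All tested genes gave 28.0% higher and 32.6% lower, so these counts by themselves set the complex apart in neither direction. Actr3 and Actr2, the actin-related proteins that seed the branch, were called lower. Actr3 had 1079 and 46.0 TPM, log2 ratio -1.75, and Actr2 had 310 and 24.8 TPM, log2 ratio -1.21. Arpc4 was called higher, at 248 and 1401 TPM with a log2 ratio of 5.60, above that of Coro1a. Arpc5 was called higher at 1.71 and Arpc1a, the paralog of Arpc1b, at 1.03, although both had less TPM in replicate 2, 225 against 362 for Arpc5 and 17.1 against 48.3 for Arpc1a. Arpc3 and Arpc5l were not called, at -0.53 and 0.67, and Actr3b was not tested. The subunits of one complex therefore covered a log2 range from -1.75 to 5.60.

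L-plastin, the filament bundler of blood cells, was among the less abundant of the 10 in replicate 2. Lcp1 (14:75131101-75230842, plus strand) had 816 TPM and 54088 expected counts in replicate 1, and 122 TPM and 2665 expected counts in replicate 2. The TMM log2 ratio was -0.23 (-0.28 to -0.17), not called, with -1.49 on total counts and -2.73 on log2(TPM + 1). Actb exceeded Lcp1 in TPM by 2.49 times in replicate 1 and by 29.1 times in replicate 2. Lcp1-206 held 55.04% of the gene in replicate 1 and was listed at 0 in replicate 2, where Lcp1-209 held all of it. The deposited spread of the read assignment was 555 counts for Lcp1-206 and 558 for Lcp1-209 in replicate 1, beside 29254 and 24508 expected counts. The plastins Pls3 and Pls1 of other tissues were scarce: Pls3 had 26.0 and 1.18 TPM, called lower at -2.08, and Pls1 was not tested, with 107 and 0 counts.

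Most of the 10 genes kept the same leading transcript. Of the 9 that could be compared with other genes (at least 2 transcripts and a mean of 10 TPM), 3 had another leading transcript in replicate 2, namely Coro1a, Arpc1b and Lcp1. Over all 5402 genes compared the share was 44.0%. A change from a retained-intron to a protein-coding leader, as in Coro1a, was seen in 2.94% of them, 159 genes, and the reverse change in 340 genes. Over all genes the retained-intron share of TPM was 6.09% in replicate 1 and 14.7% in replicate 2. In Actb, Actg1 and Pfn1 the retained-intron share ran the other way, from 3.04%, 0.959% and 5.16% of the gene's TPM in replicate 1 to 0, 0 and 0.0409% in replicate 2.

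GC content and length moved with the ratios over all genes. With the tested genes split into 10 equal bins by GC, the median TMM log2 ratio went from -1.67 in the lowest bin to 2.54 in the highest. With 10 bins by length it went from 1.54 in the shortest to -1.60 in the longest. The 10 genes ranged from 46.1% GC (Tmsb4x) to 57.4% (Tmsb10 and Coro1a), with 49.6% as the median of all, and from 570 bases (Tmsb10) to 3678 bases (Lcp1), with 2388 as the median of all. Coro1a, in the highest GC bin, kept a ratio of 2.38 after the median of that bin was subtracted, and Actb one of 3.62. Tmsb10 came down from 2.91 to 0.37 and was no longer called, while Tmsb4x went up from 1.57 to 2.40. With the median of its length bin subtracted, Tmsb4x was at 0.04. The sign of Cfl1 and of Lcp1 turned under both, to -0.30 and 0.60 for GC and to -0.51 and 0.57 for length. The median ratio of the 10 genes, 1.10 before, was 0.77 with GC medians subtracted and 0.53 with length medians subtracted. The part of GC content and length in these ratios was not otherwise tested.

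**Figure D4:**
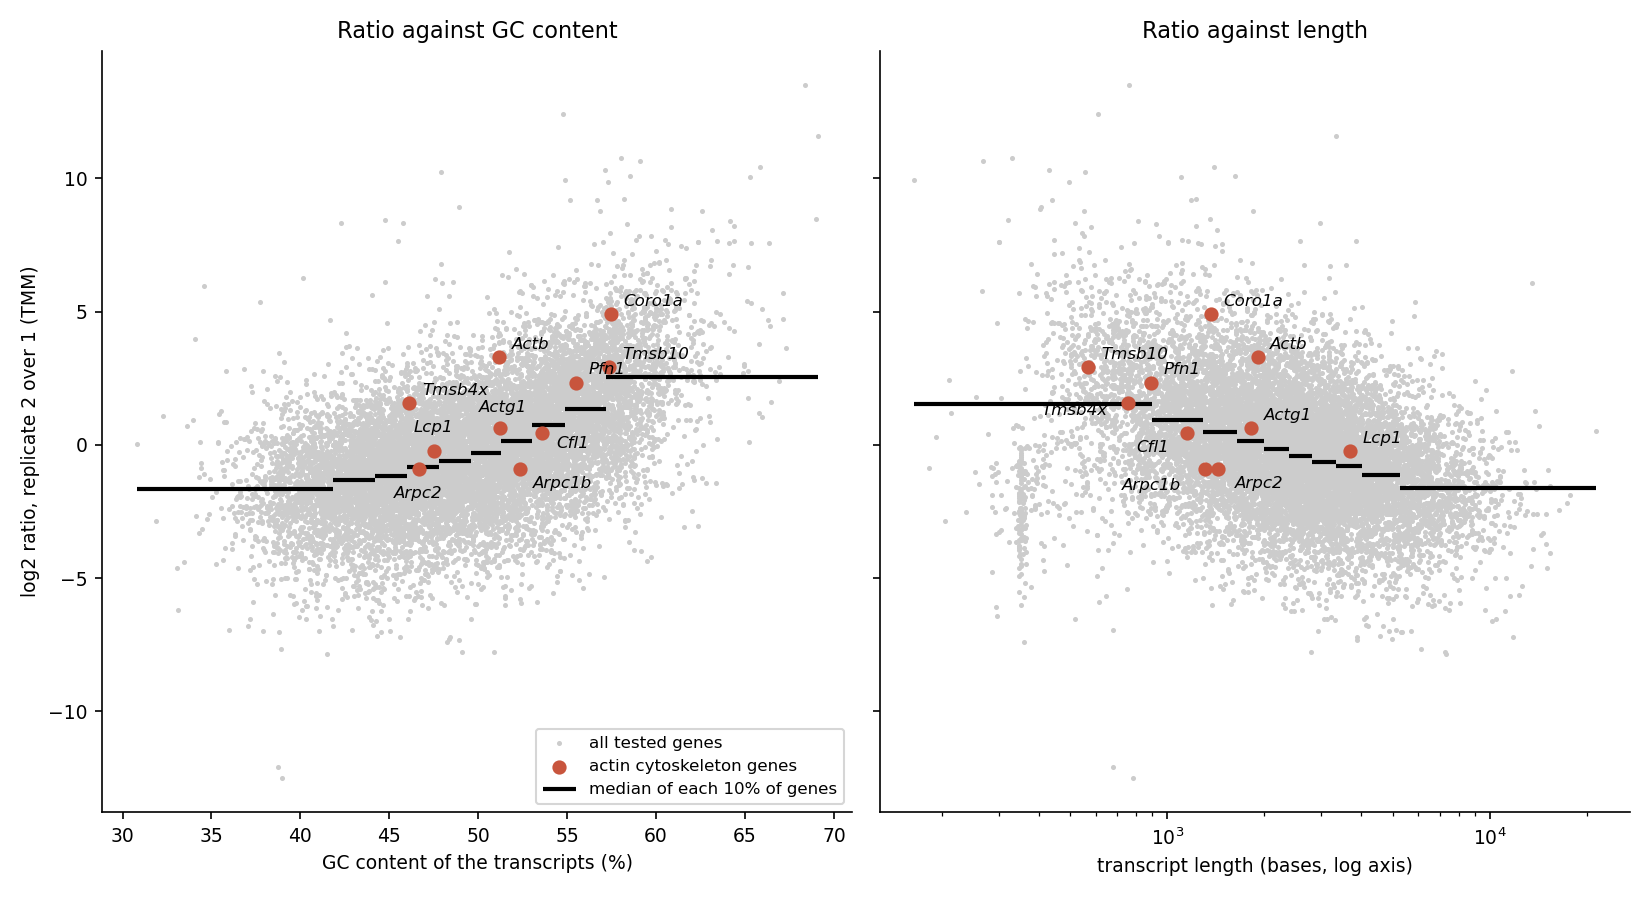
TMM log2 ratio of replicate 2 over replicate 1 against GC content and against transcript length (log axis), with all tested genes in grey, the 10 genes in red and the median of each bin as a black line over the bin's range. Coro1a and Actb lie well above the black line of their bin in both panels, whereas Tmsb10 lies close to it for GC and Tmsb4x close to it for length.

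Other genes of the actin pathway were called in both directions after TMM scaling, in shares near those of all tested genes. Of 106 other listed genes of filament turnover and motility, 95 were tested, and 30 were called higher, 33 lower and 32 neither, where all tested genes gave 28.0% higher and 32.6% lower. Their median TMM log2 ratio was -0.04, beside 1.10 for the 10 genes and -0.27 for all tested genes. The balance depended on the scale. On total counts 13 were called higher and 59 lower, where all tested genes gave 14.6% and 58.5%. On log2(TPM + 1) 6 were higher and 80 lower beyond 1.5-fold. The shares of all tested genes on that scale were not counted. Their median there was -2.10, so these counts by themselves give no direction for the pathway. By the joint criterion 10 were higher and 31 lower, beside 11.8% and 30.5% of all tested genes. The counts by role below use TMM and are to be read against the same 28.0% and 32.6%, and roles of so few genes give no direction of their own. On log2(TPM + 1) the median was -2.35, below the -2.10 of all tested genes.

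Among monomer-binding and severing genes the calls again went both ways. Twf2, a twinfilin that caps and binds monomers, was called higher, at 26.5 and 139 TPM with a log2 ratio of 5.07. Cap1, which recharges monomers, was called lower, at 322 and 10.1 TPM with a ratio of -2.48. The profilin Pfn2 had 7.64 and 1.91 TPM and was not called, and Pfn4 and Tmsb15a had at most 2 counts in a library. Of 12 tested severing and turnover genes besides Cfl1, 4 were called higher and 3 lower. The debranching factor Gmfg had 289 and 392 TPM, a ratio of 2.91, and the filament binder Cotl1 had 92.7 and 185 TPM, a ratio of 3.36. Of the cofilin relatives, Dstn was called higher at 0.86, although its TPM was 147 in replicate 1 and 48.5 in replicate 2, and Cfl2, the muscle cofilin, was called lower at -2.31.

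Of 15 tested regulators of Arp2/3, 3 were called higher and 9 lower, and 1 and 8 by the joint criterion. The most abundant, Hcls1, the cortactin of blood cells, and Brk1, a subunit of the WAVE complex, were both called higher, at 2.89 and 1.54, with 181 and 227 TPM for Hcls1 but less TPM in replicate 2 for Brk1, 178 and 91.4. Of bundling and crosslinking genes besides Lcp1, 6 of 12 were called higher and 4 lower. The tropomyosins Tpm3 and Tpm4, which coat filaments, were called in opposite directions, at 1.21 and -3.11, with 429 and 156 TPM for Tpm3, so that its direction turned, and 373 and 8.02 TPM for Tpm4. Capping and elongation genes had 2 higher and 3 lower of 12, and the capping protein subunits Capzb and Capza2 were not called, at 0.26 and 0.13.

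Of 7 genes that link actin to the membrane, 2 were called higher and 4 lower, and 0 and 4 by the joint criterion, since both higher ones had less TPM in replicate 2. Moesin (Msn) had 480 and 42.9 TPM, a ratio of -0.99, and talin 1 (Tln1) had 150 and 4.48 TPM, a ratio of -1.26. Among the myosin motor genes 3 of 8 were called higher and 3 lower. The light chain Myl6 was called higher, at 591 and 2612 TPM with a ratio of 4.72, and Myl12b at 1.01, although Myl12b had 304 and 84.2 TPM and a ratio of -0.25 on total counts.

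**Figure D5:**
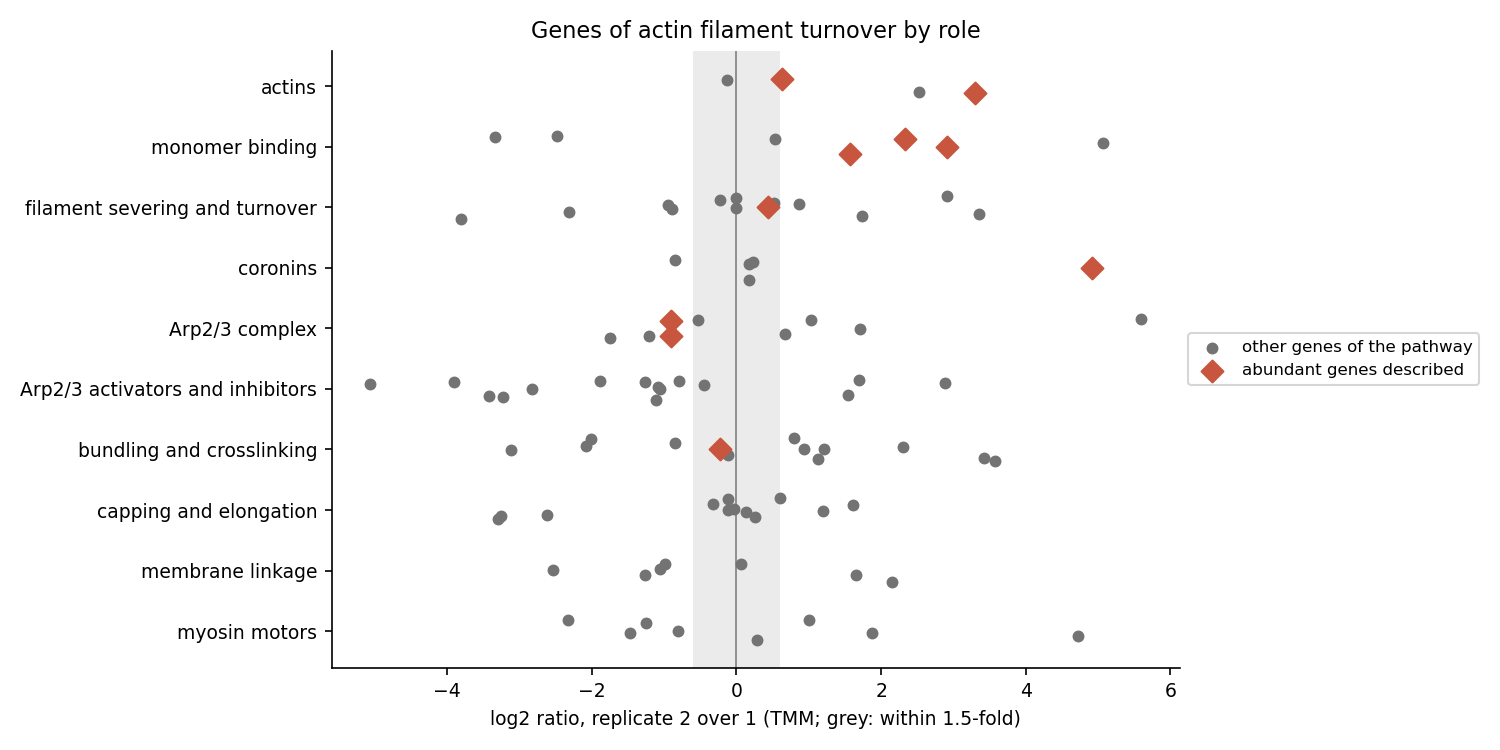
TMM log2 ratio of replicate 2 over replicate 1 of tested genes of the actin pathway in the roles described, with the 10 genes as red diamonds and the others as grey points. In most roles the grey points extend to both sides of the band within 1.5-fold, and among the coronins Coro1a stands apart from the other 4.

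Outside the pathway, the genes with levels nearest to the members' median point were also abundant housekeeping and antigen-presentation genes. The median of log2(TPM + 1) over the 10 genes corresponds to 1127 TPM in the first library and 658 in the second. The nearest protein-coding gene was H2-K1, a class I antigen-presenting molecule, with 1108 and 618 TPM. It was followed by the ribosomal protein genes Rpl11 and Rpl34, the lysosomal Psap and the chaperone Hspa8, over a set of 2 libraries only. Of the 10 genes 9 had promoter windows in the RefSeq table (GRCm38), 13 windows in all of 300 bases. Actb had none, so its promoter was not searched. A CArG box, searched on both strands, was in 1 of these 13, that of Actg1, and in 1.63% of all 32851 windows. It started 90 bases before the RefSeq gene start, which is not the gene start of the coordinates given above. A match is a description of the letters, and nothing on factor binding was measured.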

How the data were processed

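Polyadenylated RNA of 1 spleen was measured in 2 libraries. Per the labels and a deposited text file, the authors aligned reads to the mm10 transcriptome with GENCODE M4. Aligner and quantifier names and versions are not given in the sources used here. The authors deposited expected counts for genes and transcripts, with shared reads divided among features, and TPM scaled to 1000000 per library. They also deposited the percent of its gene's TPM that each transcript holds. Lengths, the spread of the read assignment and TPM bounds are other measures in the deposited tables.

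Symbols, coordinates, transcript classes, sequences and 31-base words came from GENCODE M21 on the same genome, GRCm38, which matched 101510 of 103639 transcripts and gave GC content for 99.76% of tested genes. Gene symbols matched 42462 of 43346 Ensembl identifiers. Entries without one held 1.09e-05% and 2.10e-04% of counts and stayed out of library sizes. Expected counts were rounded. Tested genes (12467) had 1 TPM or more on average and 50 or more counts in all. Scaling used edgeR 4.0.16 (TMM) or DESeq2 1.42.0 (size factors) in R 4.3.3, with no model test. Intervals were exact Clopper-Pearson 95% intervals conditional on a gene's total, from scipy 1.17.1, and a count of 0 took a floor of 3. The interval rule was tested on simulated data.

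The members and gene lists were chosen with earlier results of these data known. Genes named besides the members were all paralogs and co-subunits, the 2 genes of highest mean TPM in each other role, the 5 genes nearest in level, and genes sharing most sequence. Genes that overlap a member (Snx32, Bola2, Pdap1) and single cell markers were named outside this rule, after their values were seen. One role of the gene list enters the totals of the pathway but is not reported here by itself. Protein sequences were not used here. Alternatives tried were total counts, DESeq2 factors, log2(TPM + a pseudocount of 0.1, 1 or 10), no filter, a 2-fold threshold, a 99% interval, subtraction of the median of GC or length bins (10 each), and summing genes with shared sequence.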

Additional observations from a re-analysis of the deposited data

How the results depend on the processing

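Of 120 alternative values for the ratios of the 10 genes, 77 kept their direction and call, 14 gained a call, 8 lost one and 21 changed sign. These values are not separate checks, and the 77 are no measure of robustness. A 2-fold threshold or a wider interval cannot alter a ratio, and leaving out the filter gave the same ratios. Summing genes with shared sequence altered only the ratio of Tmsb10, to 2.94. The pseudocounts gave ratios close to one another. Total counts gave -0.64 for Actg1 and -0.83 for Cfl1, with 4 of the 10 lower and, of the other pathway genes, 13 higher and 59 lower. All tested genes gave 14.6% higher and 58.5% lower on total counts. TPM with a pseudocount of 1 gave -0.91 for Tmsb4x, -1.85 for Actg1, -0.08 for Pfn1 and -2.06 for Cfl1, with 2 members higher and 6 lower, and 6 pathway genes higher and 80 lower. A pseudocount of 0.1 gave -0.91, -1.85, -0.08 and -2.06 for the same genes, 2 and 6 members, and 7 and 80 pathway genes. A pseudocount of 10 gave -0.91, -1.82, -0.08 and -2.02, 2 and 6 members, and 6 and 71 pathway genes. Subtracting GC medians gave -0.30 for Cfl1 and 0.60 for Lcp1. Subtracting length medians gave -0.51 and 0.57, with 2 members and 20 pathway genes lower. A 2-fold threshold left 0 members lower. Chosen after seeing the data, TPM without globin gave -0.13 for Tmsb4x, -1.07 for Actg1 and -1.28 for Cfl1, with 5 members lower, and 12 pathway genes higher and 71 lower. Also chosen after seeing the data, the joint criterion left 3 members and 10 pathway genes higher, against 11.8% of all tested genes. Shares of all tested genes were not counted for the TPM scales, for GC or length subtraction or for the 2-fold threshold. The medians of all tested genes were -2.10 on log2(TPM + 1) and -1.63 for TPM without globin. The leading transcript matched between libraries for 7 of the 10 genes, for 9 among protein-coding transcripts, and for 9 without retained-intron transcripts, the last chosen after seeing the data. The causes were not tested. No paired analysis was possible because 1 library stands on each side, and for the same reason none could be left out. With 27528824 against 3806381 total counts, replicate 2 sets the precision, and transcripts listed at 0 there may lie below its depth.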
